A study of Mus musculus with 15 samples.

Results

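The 8 vehicle mice described here divided into 2 animals whose mammary tissue contained Cd79a transcript and 6 animals in which Cd79a was listed at 0. The mice were chosen by this measured value: replicates 6 and 8 had Cd79a above the floor of the deposited tables, at 5.81 and 5.35 log2(CPM), and replicates 1, 2, 3, 4, 5 and 7 did not. The series holds 15 mice in all, and the 7 that received BDE-47 were not used. All vehicle mice were female nu/nu nude mice (Crl:NU-Foxn1nu, Charles River) carrying implanted pumps that delivered PEG300 with 1% DMSO over 16 weeks, beginning after 8 weeks of age, and the left 4th mammary tissue of each was sequenced as 1 library by 3′ end counting. Some animals of the study also carried tumour xenografts, and the labels give neither this nor the presence of a lymph node for a single mouse. Levels are log2(CPM), the log2 of reads per 1000000 mapped reads, and a value of 0 means under 1 CPM.

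The 4th mammary fat pad of the mouse normally surrounds the inguinal lymph node, a capsule of B cell follicles, T cell zones, macrophages and specialised vessels. Around it lie white adipocytes, which store triglyceride, and a tree of epithelial ducts with an inner luminal and an outer contractile layer. Cd79a encodes one of the signalling chains of the B cell receptor and is restricted to the B lineage. Adipoq encodes adiponectin, a hormone made by adipocytes. Nude mice lack a functional thymus because of their Foxn1 mutation, and so form few conventional T cells while B cells develop.

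The libraries were of like depth. The spacing of the lowest values gave 15.5 M reads (M stands for 1000000) for replicate 6, 12.0 M for replicate 8 and 14.0 to 16.5 M for the other 6, so the floor of 1 CPM corresponded to between 12.0 and 16.5 reads. Genes above the floor numbered 8352 and 8259 in replicates 6 and 8 and 7464 to 11476 in the others, with replicate 1 at the top of that range. Exact zeros also occurred in genes that depth should have shown: among genes averaging 10 to 20 CPM, 23.7% of the values in replicates 6 and 8 and 24.6% of those in the other mice were 0. A single gene at 0 is therefore weak evidence of absence, and statements below rest on groups of genes.

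In total, 6971 genes were above the floor in every mouse of one side. Of the 6280 genes above the floor in both Cd79a-positive mice, 1267 (20.2%) were higher there than in each of the other 6 mice. In the opposite direction, 736 (18.5%) of the 3989 genes above the floor in all 6 Cd79a-zero mice were lower in both replicates 6 and 8 than in any of those 6. The remaining 4968 genes overlapped. The shares of 20.2% and 18.5% below refer to these expressed genes. Lists also hold genes under the floor, so the number above it is given where a list is set beside these shares. Among the higher genes, 199 were listed at 0 in all 6 Cd79a-zero mice, 682 were above the floor in some of them and 386 in all 6. Over the 3298 genes above the floor in all 8 mice the median difference was 0.03 log2 units, with quartiles of -0.92 and 0.78, so the 2 sides were centred alike. Because only 2 mice form one side and the sides were selected on a B cell gene, sizes and non-overlap are given and no test of significance. The B cell counts below describe the rule that formed the sides and are not independent evidence of it. In bulk tissue, fewer cells of a type and less RNA per cell cannot be told apart.

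The 10 widest gaps above the other mice were led by Glycam1, a mucin-like glycoprotein that is secreted by high endothelial venules and also by lactating mammary epithelium. Glycam1 stood at 9.44 and 10.06 log2(CPM) in replicates 6 and 8, against 1.01 in replicate 1 and 0 in the other 5 mice. Marco, a macrophage scavenger receptor, was at 9.16 and 10.59 against a highest value of 2.49 elsewhere. The other 8 were listed at 0 in all 6 Cd79a-zero mice. Timd4, a phosphatidylserine receptor of resident macrophages, was at 7.55 and 6.93 in replicates 6 and 8. Ptprcap, a partner of the leukocyte phosphatase CD45, was at 7.48 and 6.91. Iglc3 (6.54 and 7.17), Fcmr (6.28 and 7.33) and Tnfrsf13c (6.12 and 6.11) are B lineage genes, encoding an immunoglobulin light chain constant region, the receptor for IgM and the receptor for the survival factor BAFF. Ikzf1, the lymphoid transcription factor Ikaros, was at 7.08 and 6.44, the chemokine Ccl22 at 6.36 and 7.12, and the adaptor gene Samsn1 at 6.26 and 6.63.

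**Figure D1:**
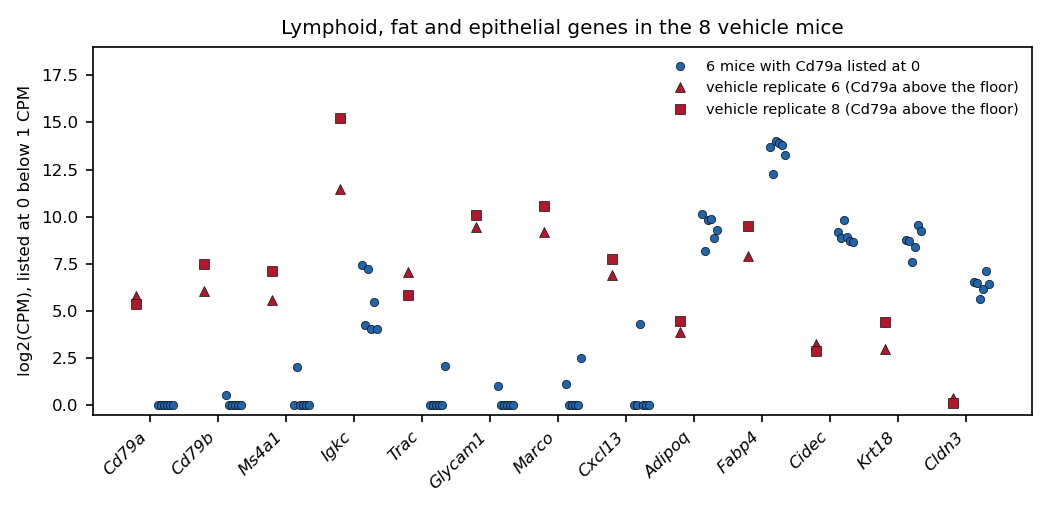
Log2(CPM) of 13 genes in each vehicle mouse, with red symbols for replicates 6 (triangle) and 8 (square) and blue circles for the 6 mice with Cd79a listed at 0. The lymphoid genes on the left stand above every blue circle in both red mice, and the fat and epithelial genes on the right stand below every one, as for Adipoq at 3.88 and 4.48 against 8.16 to 10.13.

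In the B cell receptor and signalling list, all 30 genes were above the floor in replicates 6 and 8. Of these 26 stood above every other mouse, beside 20.2% of all such genes. Cd79a lies at chr7:24897497-24901858 of GRCm38, and its values in replicates 6 and 8 amounted to 874 and 489 reads. Cd79b, the other signalling chain, was at 6.07 and 7.49 log2(CPM) and at most 0.52 elsewhere. Ms4a1, which encodes CD20, was at 5.57 and 7.10, with 2.02 in replicate 2 and 0 in the other 5. With the sides formed on a B cell gene, these values describe that choice and do not add to it. Spib, an Ets-family transcription factor, was at 6.53 and 5.98, and Fcrla, an intracellular Fc receptor-like protein of B cells, at 5.97 and 6.41, both at 0 elsewhere. Ebf1, a B lineage transcription factor that adipocytes also express, did not separate the sides at all: its 6.15 and 6.65 lay inside the range of 6.12 to 7.16 in the other 6 mice. Blnk, Cd72 and Bach2 overlapped as well. The summed level of the 30 genes was 1964 and 2242 CPM in replicates 6 and 8 and 108.8 to 169.6 CPM in the others.

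Immunoglobulin genes showed the largest upward differences of all genes above the floor in every mouse. The κ light chain constant region Igkc was at 11.47 log2(CPM) in replicate 6 and 15.25 in replicate 8, and between 4.03 and 7.44, with a median of 4.86, in the other 6. The mean difference was 7.95 log2 units, with an SD of 2.67 between the 2 Cd79a-positive mice and 1.57 among the 6. The γ2c heavy chain gene Ighg2c differed by 7.95 log2 units and Ighg2b by 7.85. Ighm, the IgM heavy chain, was at 9.54 and 11.18 against 0.36 to 6.62, a mean difference of 7.14. Of the 18 immunoglobulin and plasma cell genes, 15 were above the floor in both mice. Of these 12 stood above every other mouse, beside 20.2% of all such genes. Besides Iglc3, the widest gaps belonged to Iglc2 (5.49 and 8.01), Iglc1 (4.62 and 5.97) and the endoplasmic reticulum protein gene Mzb1 (6.71 and 7.92, at most 2.06 elsewhere). Immunoglobulin constant regions are near-identical copies of one another in part, so values for single subclasses and for Iglc1, Iglc2 and Iglc3 are uncertain. Genes of the germinal centre, where activated B cells mutate their receptors, did not separate the sides. None of the 8 was above the floor in both mice. Bcl6, the repressor that defines germinal centre B cells and is also made elsewhere, was at 0 and 3.24 against 1.85 to 5.46, and S1pr2 at 3.41 and 0 against 2.59 to 5.82.

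T and NK cell genes were present in both Cd79a-positive mice despite the nude background. Of 31 genes, 23 were above the floor in both. Of these 22 stood above every other mouse, beside 20.2% of all such genes, and 13 of the 22 were listed at 0 in all 6. Il7r, the interleukin 7 receptor, was at 5.81 and 6.24 log2(CPM), and Cd8b1, a chain of the CD8 coreceptor, at 5.96 and 5.47, both at 0 in the other 6. The adhesion receptor gene Cd2 was at 6.67 and 6.44 against at most 0.64. Most listed chains of the T cell receptor complex were above the floor in both mice as well, but Cd247 was at 6.38 in replicate 6 and 0 in replicate 8. Trac was at 7.07 and 5.83, Cd3e at 6.24 and 4.22 and the γδ receptor gene Trdc at 6.86 and 3.86. Cd4 was at 3.48 and 6.71. Over the list the summed level was 2544 and 1196 CPM against 12.4 to 100.3 CPM. The NK receptor gene Ncr1 was at 5.57 in replicate 8 and 0 in replicate 6, and Klrb1c was at 0 in all 8 mice.

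Genes shared by most leukocytes separated in 24 of 30 cases, 28 of the 30 being above the floor in both mice, beside 20.2% of all such genes. Ikzf3, a lymphoid relative of Ikzf1, was at 5.61 and 5.60 and at 0 in the other 6. The integrin chains Itgb7 (5.81 and 6.45, at most 0.58) and Itgal (7.23 and 7.56, at most 2.38) were also far apart. The pan-leukocyte phosphatase gene Ptprc, encoding CD45, was at 8.36 and 7.07 against 0 to 5.41. Among 17 genes for lymphotoxin, BAFF and homing receptors, 13 were above the floor in both mice. Of these 11 were higher without overlap, beside 20.2% of all such genes. Ccr7, the receptor that guides T cells and dendritic cells into the node, was at 6.51 and 5.92, the BAFF and APRIL receptor gene Tnfrsf13b at 5.42 and 7.35, and the oxysterol receptor gene Gpr183 at 4.92 and 6.49, all at 0 elsewhere. Ltb, a subunit of the lymphotoxin that organises lymphoid tissue, was at 6.53 and 7.50 against at most 4.77.

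**Figure D2:**
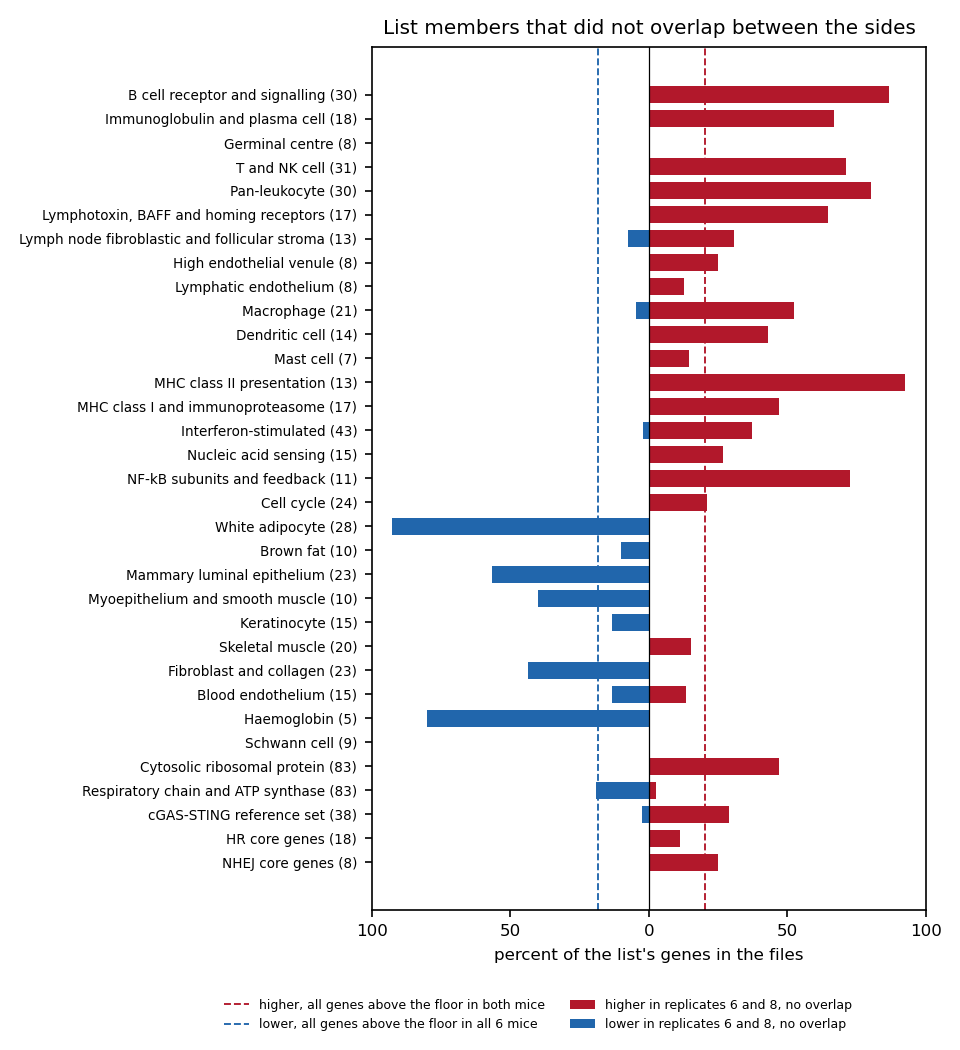
Percent of each list's genes (number in the tables in parentheses) that were higher (red, right) or lower (blue, left) in replicates 6 and 8 than in every other vehicle mouse. Dashed lines mark 20.2% and 18.5%, the shares among all genes above the floor in both mice and in all 6 mice. The bars also count list genes under the floor, so bars and lines have unlike bases. Lymphocyte, leukocyte and MHC class II lists extend far right and white adipocyte, luminal epithelium and haemoglobin lists far left.

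The stroma and vessels of a lymph node were less evenly represented than its lymphocytes. Of 13 fibroblastic and follicular stroma genes found, 8 were above the floor in both mice. Of these 4 were higher without overlap, beside 20.2% of all such genes. Cxcl13, the chemokine that draws B cells into follicles, was at 6.91 and 7.76 log2(CPM), with 4.31 in replicate 3 and 0 in the other 5. The adhesion molecule gene Vcam1 was at 7.32 and 7.99 against 0 to 5.34, and Bst1 at 3.49 and 4.92 against at most 2.34. Clu, a complement inhibitor abundant in follicular dendritic cells, was at 8.88 and 9.56 against 5.95 to 7.94. Ltbr, the lymphotoxin β receptor, went the other way, at 4.38 and 3.91 against 5.02 to 6.67. Of 8 high endothelial venule genes, only 3 were above the floor in both mice. Of these Glycam1 and Fut7 were higher without overlap, beside 20.2% of all such genes. Fut7, a fucosyltransferase that modifies glycans of these vessels, was at 5.79 and 5.04 and at 0 elsewhere. Chst4, a sulfotransferase of the same glycans, was at 3.94 in replicate 6 and 0 in replicate 8, and Madcam1 reached 0.59 in replicate 8 only. The chemokine genes Ccl19 and Ccl21a, products of the T cell zone, each stood in 2 entries of the tables and were listed at 0 in every mouse, apart from one Ccl19 entry at 0.43 in replicate 6. These chemokines have near-identical copies in the genome, and their values are uncertain. Prox1, the transcription factor of lymphatic endothelium, was the only one of its 8-gene list to be higher without overlap, at 2.85 and 5.61 against at most 2.54. Only 3 of the 8 were above the floor in both mice, too few to compare with the 20.2% of all such genes. The part played by the amount of stroma in these differences was not tested.

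Macrophage genes divided. Of 21, 16 were above the floor in both mice. Of these 11 were higher without overlap, beside 20.2% of all such genes, and 1 list gene was lower. Next to Marco and Timd4, Lyz2 and Lyz1, which encode lysozyme, were at 9.87 and 10.36 and at 2.69 and 7.70, against 4.73 to 7.40 for Lyz2 and 0 for Lyz1. Cd14, a coreceptor for lipopolysaccharide, was the exception at 0 in both against 3.79 to 5.94. The widely used macrophage markers Csf1r, Cd68 and Mrc1 overlapped between the sides. Of 14 dendritic cell genes, 7 were above the floor in both mice and 6 of these were higher without overlap, beside the 20.2%. Irf8, a transcription factor of dendritic and B cells, was at 7.92 and 7.93 against 0 to 3.86, Cd83 at 4.87 and 4.67 against at most 0.60, and Siglech, a marker of plasmacytoid dendritic cells, at 5.97 and 7.11 against at most 2.93. Cpa3 was the only one of 7 mast cell genes to separate, at 4.63 and 4.86 against 0 to 4.51. Of the 7, 4 were above the floor in both mice, and 1 of 4 is near the 20.2% of all such genes.

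MHC class II genes, which display antigen to CD4 T cells and are expressed by B cells, macrophages and dendritic cells, were the most uniform of the higher lists with 12 of 13 genes. These were all 12 above the floor in both mice, beside 20.2% of all such genes. H2-Eb1 was at 10.50 and 11.28 log2(CPM) against 5.12 to 7.58, a mean difference of 4.67 or 25.5-fold. H2-Aa was at 9.68 and 9.83 against 4.35 to 6.28, a 24.2-fold difference, and Cd74, the invariant chain, at 8.85 and 9.32 against 4.86 to 6.17. The peptide exchange gene H2-Oa was at 3.86 and 5.50 and at 0 in the other 6. Only H2-Eb2 did not separate, at 0 in replicate 6. Class I presentation, which nearly all cells use, separated by less. Of 17 genes, 16 were above the floor in both mice. Of these 8 were higher without overlap, beside 20.2% of all such genes. The immunoproteasome subunits Psmb9 (7.77 and 7.39 against 2.07 to 5.47) and Psmb8 (8.70 and 8.90 against 5.80 to 7.57) and the class I genes H2-Q7 (6.72 and 7.21 against 0 to 3.93) and H2-D1 (10.58 and 10.11 against 8.48 to 9.77) had the widest gaps. B2m, the class I light chain, was at 10.55 and 11.00 against 9.18 to 10.25.

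Interferon-stimulated and NF-κB genes also separated, the interferon list less completely than the NF-κB list. Of 43 interferon-stimulated genes, 33 were above the floor in both mice. Of these 16 were higher without overlap, beside 20.2% of all such genes, and 1 list gene was lower. Cxcl10, a chemokine for activated T cells, was at 6.06 and 6.22 log2(CPM) and at 0 in the other 6. Trim30a was at 7.32 and 7.10 against at most 2.57, Ifi44 at 7.44 and 6.56 against 0 to 4.49, and Irf7, the factor that amplifies type I interferon, at 5.90 and 6.06 against 0 to 4.20. Ifi27l2a went the other way, at 6.84 and 6.75 against 8.28 to 10.03. Lymphocyte genes moved with these genes in the same 2 mice, and their part in the result was not tested. In the 38-gene cGAS-STING list named by the study, 25 genes were above the floor in both mice. Of these 11 were higher without overlap, beside the 20.2%, and 1 list gene was lower. Zmynd15 (4.72 and 3.97, at 0 elsewhere), Epsti1 (6.69 and 7.12, at most 3.69) and Ube2l6 (5.68 and 5.93, at most 3.29) had the widest gaps besides Ifi44, and Podxl was lower at 0.85 and 4.56 against 6.38 to 8.33. Of 15 nucleic acid sensing genes, 9 were above the floor in both mice and 4 of these were higher, beside the 20.2%. Tmem173, which encodes STING, was at 7.05 and 6.28 against 0 to 4.92, Ifi203 at 7.20 and 6.21 against at most 3.79, Samhd1 at 8.15 and 7.82 against 2.38 to 6.06, and the endosomal receptor chaperone Unc93b1 at 6.90 and 7.37 against 3.80 to 5.84. Mb21d1, which encodes cGAS, was at 0 in replicate 6 and 4.26 in replicate 8. Among 11 NF-κB subunits and feedback genes, 9 were above the floor in both mice and 8 of these were higher, beside the 20.2%. Traf1 (5.15 and 7.15) and Nfkbie (4.91 and 5.46) were at 0 in the other 6, Relb was at 6.34 and 7.39 against at most 2.91, and Birc3 at 6.22 and 5.30 against at most 3.97.

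Promoter sequences were compared to show which of these genes carry a common element of interferon response, GAAANNGAA, in the 250 bases before to 50 after their RefSeq start (GRCm38.p6, both strands). Of the 16 interferon-stimulated genes that were higher without overlap, 13 had a promoter in the RefSeq table and 10 of these (76.9%) held the letters. Of the 26 that overlapped, 17 had a promoter and 13 (76.5%) held them, beside 9.76% of all 27025 genes. The share holding the letters was thus alike in the higher and the overlapping genes of the list, and Ifi27l2a had no promoter in the table. The 4 windows below were chosen as one for each of a chemokine, a ubiquitin-like protein, an antiviral tetratricopeptide protein and an oligoadenylate synthetase, with the matched letters in capitals, and Ifit3 holds the element on the other strand. They lie at chr5:92349084-92349112 (Cxcl10), chr4:156200872-156200900 (Isg15), chr19:34583364-34583392 (Ifit3) and chr5:120777710-120777738 (Oas3), each written along its gene's strand.
Cxcl10: tcacgctttgGAAAGTGAAacttacctca
Isg15: gtaggaaaagGAAACCGAAacagaaaata
Ifit3: agtggtaagtTTCACTTTCctcttctggt
Oas3: aggagaaaacGAAAGTGAAgggaggtgac
Letters of the octamer of immunoglobulin and B cell promoters, ATGCAAAT, occurred in 1 of 21 B cell list genes that separated and had a promoter (4.76%), beside 1.97% of all genes. That gene was Vpreb3, a protein of pre-B cells at 3.70 and 4.74 log2(CPM) in replicates 6 and 8 and at 0 elsewhere, with the window at chr10:75948245-75948272 and the element on the other strand.
Vpreb3: cagtgggctgATTTGCATgctctattgt

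**Figure D3:**
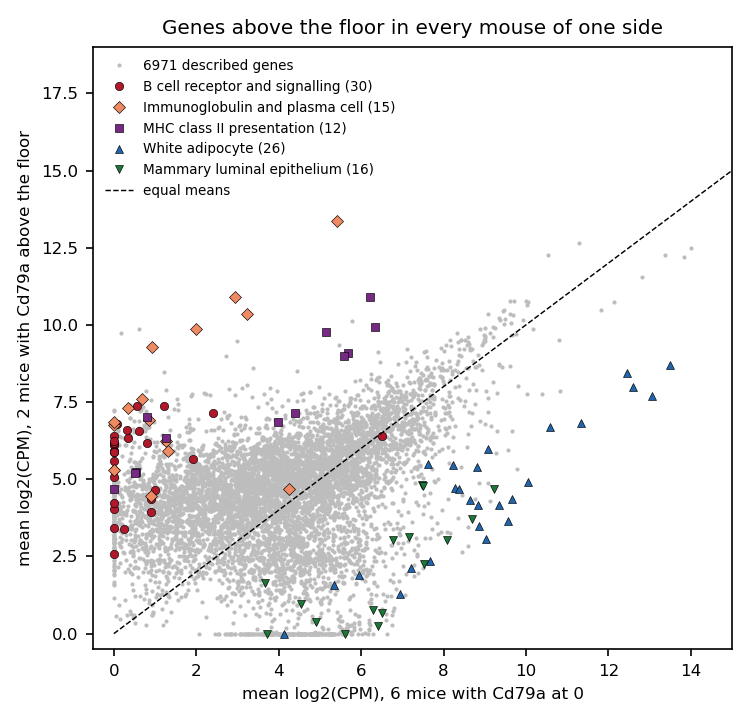
Mean log2(CPM) of the 6971 described genes in the 6 Cd79a-zero mice (horizontal) and in replicates 6 and 8 (vertical), with 5 lists in colour and a dashed line of equal means. Immunoglobulin, B cell and MHC class II genes lie above the line and white adipocyte and luminal genes below it. Ebf1 is the B cell gene on the line.

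White adipocyte genes were the counterpart of the lymphoid ones. Of 28 genes, 26 were above the floor in all 6 other mice. All 26 were lower in both Cd79a-positive mice than in any other, beside 18.5% of all such genes. Acvr1c and Aqp7 overlapped. Adipoq was at 3.88 and 4.48 log2(CPM) in replicates 6 and 8. In the other 6 it ran from 8.16 through a median of 9.54 to 10.13. The mean difference was -5.17, so that the level in the Cd79a-zero mice was 36.1-fold higher, and Adipoq itself was one of the 2 markers by which the sides are described. Cidec, a lipid droplet fusion protein, was at 3.24 and 2.86 against 8.64 to 9.85, 62.8-fold apart. Plin1, which coats the lipid droplet, was at 3.81 and 3.47 against 8.11 to 10.12. The β3-adrenergic receptor gene Adrb3 was at 1.53 and 1.00 against 6.13 to 7.58, and Cfd, the adipocyte complement factor adipsin, at 7.25 and 8.17 against 12.17 to 13.63. Across the 24 list genes above the floor in all 8 mice the median difference was -4.64. Relative to the gene-wise median of the 6 mice, the median of these genes was 2.14% in replicate 6 and 5.19% in replicate 8, and within the 6 it ran from 39.7% in replicate 2 to 125.9% in replicate 3. Thus the least adipose of the 6, replicate 2, was still far above both. The 28 genes summed to 1346 and 2717 CPM, against 20581 to 63643 CPM. Of the 10 brown fat genes only 1 was above the floor in all 6 other mice, too few to set beside the 18.5%. This gene, Cidea, was lower without overlap, at 0.69 and 0.12 against 3.02 to 6.85.

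Luminal epithelial genes were lower too. Of 23 luminal genes 15 were above the floor in all 6 other mice. Of these 13 were lower without overlap, beside 18.5% of all such genes, and none was higher. The tight junction genes Cldn3 (0.36 and 0.12 against 5.65 to 7.13) and Cldn4 (1.04 and 0.51 against 4.87 to 7.58) had the widest gaps, with Ltf, the milk protein lactoferrin (1.97 and 2.57 against 6.70 to 8.04), and Foxa1, a partner of the oestrogen receptor (0 in both against 3.50 to 6.72). Krt18, a keratin of luminal cells, was at 3.00 and 4.40 against 7.60 to 9.54. Esr1, the oestrogen receptor, was at 1.93 and 0 against 2.41 to 5.38. Krt8, the partner keratin, overlapped because replicate 8 stood at 4.95, above the lowest of the 6 at 4.73. The milk protein genes Csn2 and Wap were listed at 0 in all 8 mice. The median of the 12 luminal genes above the floor in all 8 mice was 1.95% of the level of the 6 in replicate 6 and 5.48% in replicate 8. By this measure replicate 8 stood higher than replicate 6 for both fat and luminal genes. Of 10 myoepithelial and smooth muscle genes 9 were above the floor in all 6 other mice. Of these 4 were lower, beside 18.5% of all such genes. The 6 above the floor in all 8 mice had a median difference of -2.48. The 4 lower genes were Oxtr, the oxytocin receptor of the contractile cells (0 in both against 4.42 to 6.86), Acta2 (5.21 and 4.88 against 6.54 to 8.57), Krt5 (1.25 and 0.23 against 1.71 to 6.47) and Krt14 (2.19 and 1.37 against 2.26 to 5.83). Keratinocyte genes did not stand out. Of 15, 13 were above the floor in all 6 other mice, with a median difference of -0.20. Of these 2 were lower, beside 18.5% of all such genes. These were Sfn (4.12 and 3.29 against 4.73 to 5.45) and S100a14 (0.29 and 0.51 against 0.81 to 5.86).

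Connective tissue genes were lower by less than fat genes. Among 23 fibroblast and collagen genes, 20 were above the floor in all 6 other mice. Of these 10 were lower without overlap, beside 18.5% of all such genes. The 15 above the floor in all 8 mice had a median difference of -1.80. Col5a2, a chain of fibrillar collagen V, was at 0 and 2.37 log2(CPM) against 4.42 to 6.41, Clec3b at 0.69 and 2.93 against 4.46 to 7.33, Gsn, which encodes gelsolin, at 5.92 and 7.19 against 8.85 to 10.45, and the collagen-binding proteoglycan gene Lum at 3.83 and 3.24 against 4.96 to 6.07. The major collagens Col1a1, Col1a2 and Col3a1 overlapped. Of 5 haemoglobin and haem synthesis genes found, 4 were above the floor in all 6 other mice. All 4 were lower, beside 18.5% of all such genes, with a median difference of -3.49. Hba-a1 was at 7.36 and 6.91 against 8.16 to 9.30 and Hbb-bs at 4.31 and 5.43 against 7.91 to 10.47, and the paired copies Hba-a2 and Hbb-bt were lower as well. Reads from these near-identical copies may be divided between them, so their single values are uncertain. Blood endothelium had no common direction. Cldn5 (5.71 and 5.53 against 2.91 to 4.95) and Eng (5.51 and 5.55 against 3.43 to 5.14) were higher. Tie1 (0 in both against 3.42 to 4.97) and Esam (2.52 and 0 against 5.67 to 7.33) were lower. Of its 15 genes, 7 were above the floor in both mice and 9 in all 6 others. The 2 higher and 2 lower genes thus stand beside 20.2% and 18.5% of all such genes. Of 20 skeletal muscle genes 18 were above the floor in both mice and 3 of these were higher, a smaller share than the 20.2% of all such genes. They were Eno3 (2.93 and 4.37 against 0.65 to 2.23), Des (5.98 and 6.16 against 1.40 to 5.77) and Ttn (4.23 and 2.78 against 0.84 to 2.71). None of 9 Schwann cell genes separated, with Pmp22 at 0.29 and 5.23 against 5.02 to 6.79 and Mbp at 3.62 and 5.83 against 1.40 to 5.14.

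Outside these lists, the widest gaps below the other mice were found for genes of varied function. Gipc2, a PDZ scaffold protein, and Npdc1 were listed at 0 in both Cd79a-positive mice, and stood at 5.60 to 6.89 and 5.36 to 6.38 in the other 6. Gpx4, which reduces lipid peroxides, Lgals12, a galectin of adipocytes, and the secreted ligand gene Wnt7b were also at 0 in both, against 5.08 to 6.20, 5.03 to 8.21 and 4.97 to 5.76. Plet1 was at 0.57 and 0 against 5.71 to 7.81. Prkar2b, the regulatory subunit of protein kinase A that adipocytes favour, was at 0.69 and 0.51 against 5.82 to 7.30, a mean difference of -6.16. The calcium-binding protein gene S100a1 differed by -6.14. In replicates 6 and 8 Prkar2b stood at 1.61 and 1.42 CPM and S100a1 at 1.61 and 1.17 CPM. Both were only just above the floor, which limits these differences. The chemokine gene Cxcl14 was at 1.04 and 0.42 against 5.64 to 7.76, and Hibadh, an enzyme of valine breakdown, at 1.22 and 1.00 CPM and therefore only just above the floor, against log2(CPM) values of 4.98 to 6.94. Gpx4 is used by nearly all cells, and the pseudogene Gpx4-ps2, a copy that can share its reads, was at 5.60 and 6.12 against 5.52 to 7.30, so the value of Gpx4 is uncertain.

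Ribosomal protein genes were higher in replicates 6 and 8 more often than genes at large. Respiratory chain genes were lower at a share slightly above that of genes at large. Of 83 cytosolic ribosomal protein genes, 75 were above the floor in both mice. Of these 39 were higher without overlap, beside 20.2% of all such genes, and none was lower. The median difference was 0.69 over the 72 above the floor in all 8 mice. Rps24 was at 10.79 and 10.75 against 9.28 to 9.81, Rps13 at 9.69 and 9.32 against 8.01 to 8.70, Rps16 at 8.44 and 8.90 against 5.82 to 7.79, and Rps15a at 8.64 and 8.40 against 6.73 to 7.84. Many of these genes have pseudogene copies that can share reads, so single values are uncertain. The list summed to 39953 and 33897 CPM, against 19697 to 24995 CPM. Of 83 respiratory chain and ATP synthase genes, 71 were above the floor in all 6 other mice. Of these 16 were lower, beside 18.5% of all such genes, and 2 list genes were higher. The median difference over 68 genes was -0.72, and 65 of the 83 did not separate. This median and the ribosomal one both lay inside the quartiles of all genes. Cox8a was at 7.54 and 7.52 against 8.20 to 8.79, Sdha at 5.31 and 5.58 against 6.98 to 8.16, Ndufa2 at 6.33 and 6.45 against 7.20 to 8.50 and Uqcr11 at 4.50 and 1.37 against 6.13 to 7.64. The 2 higher ones were Atp5g2 (3.36 and 2.99, at 0 elsewhere) and the muscle subunit gene Cox6a2 (1.40 and 1.06 against 0.04 to 0.91).

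**Figure D4:**
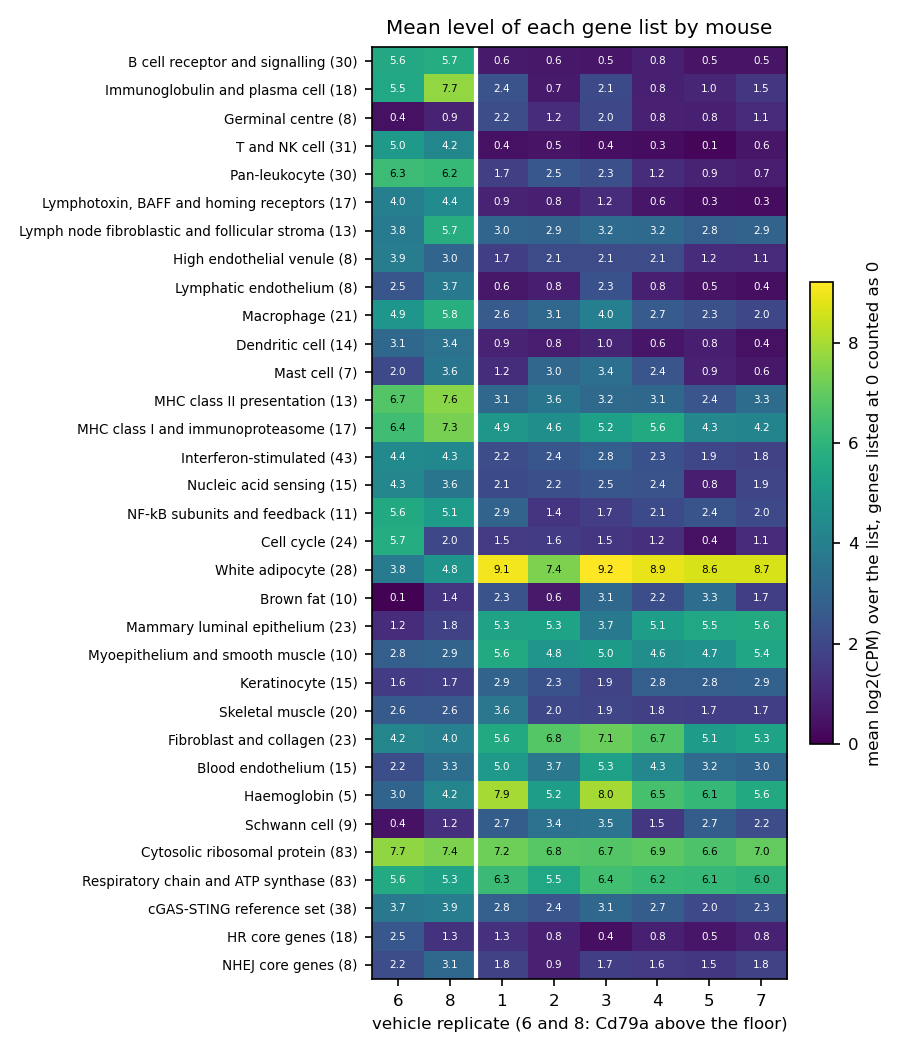
Mean log2(CPM) of each gene list (rows, number of genes in parentheses) in each vehicle mouse (columns), with genes listed at 0 counted as 0 and a white line between the 2 sides. Replicates 6 and 8 share the lymphoid and MHC rows and the low fat and epithelial rows, and differ from each other in the immunoglobulin, stroma and cell cycle rows.

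Replicates 6 and 8 were not alike in every lymphoid group. Over the 6280 genes above the floor in both, the difference of replicate 8 from replicate 6 had a median of -0.01 log2 units, and 3153 genes (50.2%) lay within 1 unit. Correlation across the 3298 genes above the floor in all mice was 0.633 between these 2 mice, 0.563 to 0.755 between pairs of the 6 and 0.353 to 0.478 between the sides, with genes not independent of one another and all pairs sharing the level of each gene. The B cell list had no common direction between them, with 17 genes higher in replicate 8, 13 in replicate 6 and a median difference of 0.11. Single genes of it differed, such as the follicle homing receptor Cxcr5 at 5.73 and 2.37, Pax5 at 7.40 and 5.38 and Fcrl5 at 1.29 and 3.86. Immunoglobulin transcripts leaned to replicate 8. Of 18 genes 15 were higher in replicate 8. Igkc was 13.7-fold higher there (38971 CPM against 2839 CPM), Ighg2c 21.0-fold, Ighg1 55.0-fold (9.12 against 3.34 log2(CPM)) and Jchain, which joins IgM and IgA polymers in plasma cells, 14.1-fold. Ighm was 3.10-fold higher and Ighd, the receptor isotype of naive B cells, was equal at 7.61 and 7.60. The 18 genes took 0.498% of the reads of replicate 6 and 5.83% of those of replicate 8, and 0.00415% to 0.0395% in the other mice. No other mouse of either side allows the spread of this difference to be judged.

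T and NK cell genes and cell cycle genes leaned to replicate 6. Of 31 T and NK genes 20 were higher in replicate 6 and 10 in replicate 8, the median of those in both being -0.92. Il2rb was at 7.61 and 2.94 log2(CPM), Cd8a at 6.47 and 3.24 and Lck at 6.93 and 3.94, while Cd4 was higher in replicate 8. Of 24 cell cycle genes 22 were higher in replicate 6. Of the 13 above the floor in both mice, 5 separated the sides, beside 20.2% of all such genes. Top2a, which untangles replicated DNA, was at 7.90 and 6.08 against at most 1.76, Mcm4 at 7.47 and 6.10, Mcm3 at 6.91 and 6.51, Plk1 at 6.70 and 3.88 and Birc5 at 8.08 and 5.12. Mki67, the proliferation antigen, was at 5.85 in replicate 6 and 0 in replicate 8, and Cdk1 at 5.92 and 0. The list summed to 2052 CPM in replicate 6 and 349 CPM in replicate 8, against 28.0 to 162.2 CPM elsewhere. Homologous recombination genes of the study's list were above the floor in replicate 6 for Bard1 (5.53) and Blm (4.57), both at 0 in replicate 8. Only Xrcc2 (4.21 and 4.19, at most 2.90) and Mre11a (4.16 and 2.86, at most 2.67) of 18 were higher than in all other mice, and among 8 end-joining genes Lig4 (3.04 and 4.96, at most 2.52) and Polm (5.46 and 5.23, at most 5.20). Of the 18 genes 5, and of the 8 genes 4, were above the floor in both mice, the base of the 20.2%. Stroma and lymphatic genes leaned to replicate 8. Of the 13 stroma genes 10 were higher there, with Il7 at 5.00, Pdpn at 6.04, Ch25h at 5.15 and Tnfrsf1b from the homing list at 6.29, each at 0 in replicate 6.

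**Figure D5:**
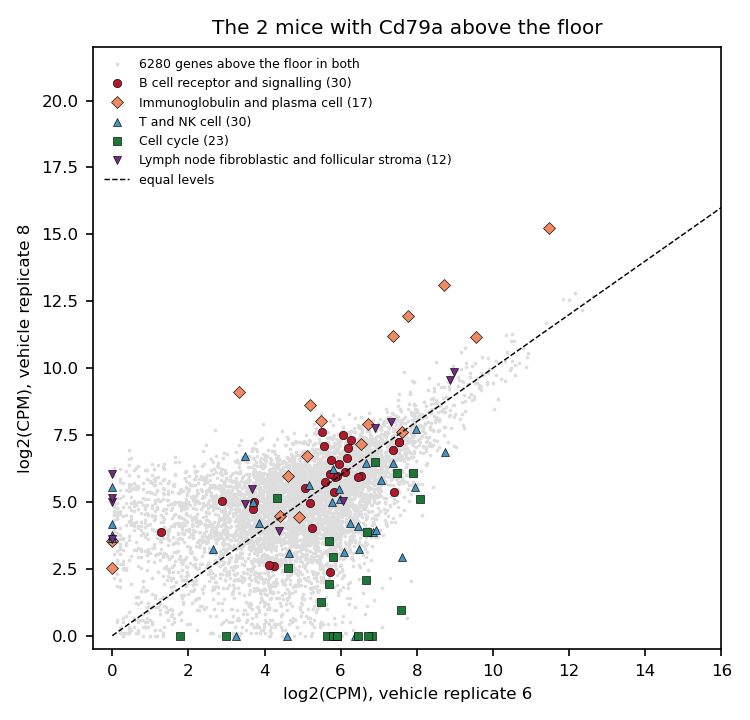
Log2(CPM) in vehicle replicate 6 (horizontal) and replicate 8 (vertical) for the 6280 genes above the floor in both (grey) and for list genes above the floor in at least 1 (coloured), with a dashed line of equal levels. Immunoglobulin genes lie mostly above the line, cell cycle genes mostly below it or on the horizontal axis at 0, and B cell genes on both sides of it.

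The 6 mice with Cd79a at 0 were not free of leukocyte transcripts. Between 3 and 9 of the 30 B cell genes and between 6 and 21 of the 30 pan-leukocyte genes were above the floor in each. Igkc was highest in replicates 1 (7.44 log2(CPM)) and 3 (7.20), in neither of which Cd79a or Ms4a1 was above the floor. Replicate 2 held Ms4a1 at 2.02, Cd3e at 2.16 and Cd4 at 2.68 and had the lowest Adipoq of the 6, at 8.16. Macrophage genes above the floor ran from 11 to 17 in the 6 mice, beside 16 and 17 in replicates 6 and 8.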

How the data were processed

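Gene expression in the left 4th mammary tissue of 8 vehicle mice was measured by QuantSeq 3′ sequencing. Per the labels and the study's methods, reads were aligned by the authors with STAR 2.5.3a to GRCm38 with RefSeq genes. The authors deposited 1 table per mouse of log2 values of CPM, with genes under 1 CPM listed at 0. Whole reads were recovered from the steps between low values (100% of values under 100 CPM within 0.05 of a read) to obtain depth only. Of 52636 entries, 216 sharing 106 names were left out, leaving 52420 genes. Another 24 names read as dates.

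A gene was called higher when above the floor in both Cd79a-positive mice with the lower of them above all 6 others, and lower by the mirrored rule. Differences are of mean log2(CPM), with folds given only for genes above the floor in all 8 mice. No significance test of differences between the sides was made. The calls were tested on simulated data. Named genes were Cd79a, Cd79b, Ms4a1 and Adipoq, the 4 widest gaps per list and direction (the 2 most abundant where none separated), the 10 widest gaps and the 5 largest differences over all genes, and some genes this rule names are not reported here. Any other gene in the text was picked with its values already in view. The sides and all 33 gene lists were chosen with earlier results of these data known. Alternatives were median-of-ratios scaling, a floor of 5 CPM, a gap over 1 log2 unit, other summaries of the difference and leaving out each mouse. Python 3.11 libraries numpy, pandas and matplotlib were used. All libraries carried the same experiment number, so no batch could be examined.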

Additional observations from a re-analysis of the deposited data

Results flagged for a closer look

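Among the 8 vehicle mice, 35 measures (depth, genes above the floor and the mean of each list) were examined for a mouse far from all others, by the gap to its nearest neighbour over the whole range (limit 0.526 for 8 mice). Chance alone flags about 1 in 20 such groups, and 5 measures were flagged. That rate holds for mice drawn alike and measures unrelated to one another. These mice were split on a B cell gene, so the flags are descriptive. Replicate 1 had 11476 genes above the floor, against 7464 to 8843 in the other 7, and its depth of 15.4 M reads lay within theirs. Replicate 1 also had the highest mean of the skeletal muscle genes, at 3.65 log2(CPM) against 1.72 to 2.62. The cell cycle genes had a mean of 5.70 in replicate 6, against 0.40 to 2.00 in the others including replicate 8. Homologous recombination genes, several of which follow the cell cycle, had a mean of 2.49 in replicate 6 against 0.37 to 1.35. The fibroblastic and follicular stroma genes had a mean of 5.72 in replicate 8, against 2.80 to 3.82 in the others including replicate 6.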

How the results depend on the processing

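The counts of separated genes depended on the number of mice compared and on the gap required. A gap of over 1 log2 unit left 524 higher and 403 lower genes. Leaving out each mouse in turn gave 1373 to 3118 higher and 765 to 1280 lower genes: without replicate 6 there were 2880 and 1244 and without replicate 8 there were 3118 and 1280, since the side then holds 1 mouse and fewer values have to be separated. Cell cycle genes were higher in 5 to 21 of 24 cases in these runs, with 21 without replicate 8 and 8 without replicate 2. Interferon-stimulated genes were higher in 16 to 25 of 43 cases, with 25 without replicate 8, and cGAS-STING genes in 11 to 19 of 38, with 19 without replicate 8. Of 146 counts compared over 14 results, 136 stayed within 1.5 times. Leaving out a mouse can only add genes to a count. A list such as MHC class II, with 12 of 13 genes higher, had no room to grow 1.5 times. The 136 is therefore no measure of stability. Of 198 values of single genes, 192 moved by less than 1 SD. Leaving out 1 of the 6 Cd79a-zero mice could not move a difference that far, so the 192 is no measure of stability. The 6 that moved came from leaving out replicate 6 or 8: Igkc (9.84 and 6.06), Fabp4 (-4.01 and -5.57) and Krt8 (-1.83 and -5.65). The 2 values with another sign than the main one were both of Ebf1, whose difference ran from -0.36 to 0.13. Median-of-ratios scaling moved the median of all genes from 0.03 to 0.09 and the ribosomal protein median from 0.69 to 0.75. No paired analysis was possible because both sides come from 1 group, share no replicate number and were compared by no test. The depth limits detection to between 12.0 and 16.5 reads per mouse, and the zeros of moderately expressed genes limit single genes further.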
